A study of Mus musculus with 9 samples.

Results

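The elastic fibre and crosslinking genes are 10 mouse genes, Eln, Fbn1, Fbn2, Fbln2, Fbln5, Efemp2, Mfap4, Mfap5, Lox and Loxl1, which were taken from the count table by their symbols. All 10 were found among the 52550 genes of the table, each at a single row, and all 10 were among the 22430 genes with enough counts to be tested. RNA from ear dermis was sequenced in 9 libraries, in 3 groups of 3. The study asked what an oral herbal treatment does in a mouse model of psoriasis.

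All animals were C57BL/6 mice (C57BL/6J in the study's methods), labelled as wild type and 8 weeks of age. In the control group, VAS+H2O, vaseline was put on the skin for 5 days and water was given by gavage for 10 days. In the model group, IMQ+H2O, the cream was imiquimod, an agonist of Toll-like receptor 7 that causes psoriasis-like inflammation in mouse skin, and water was given as in the control. In the treated group, IMQ+XYF, imiquimod was used in the same way and the gavage was 200 µL of XYF, the decoction Xiao-Yin-Fang made from Chinese herbs, at 23.3 mg/g. Imiquimod was thus shared by both the model and the treated group. By the study's methods, vaseline or imiquimod was applied on the last 5 of the 10 days of gavage, so XYF was begun before imiquimod. The dermal sheet had been peeled from the epidermal sheet of the ear, and the RNA is that of the whole sheet. RNA was prepared from the ear sheets of 2 mice, while each group has 3 libraries, and the labels do not tie the libraries to animals. The study's figure legend gives each group a size equal to its number of libraries, without saying whether each library was a different animal. Libraries of a group may therefore share animals, and the p-values measure only the spread between these libraries.

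Elastic fibres give skin its recoil. They form on a scaffold of fibrillin microfibrils, onto which tropoelastin, the product of Eln, is laid down. The fibulins and the microfibril-associated glycoproteins connect elastin, microfibrils and cells, and the lysyl oxidases join tropoelastin and collagen chains into an insoluble polymer. In adult skin these genes are expressed mainly by dermal fibroblasts, but elastic cartilage, which supports the mouse ear, makes elastin and microfibrils too.

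The libraries held between 28756305 and 79836881 counts. The 10 genes were deeply counted, with the lowest count of any of them being 664, for Fbn2 in IMQ+H2O replicate 1. All 10 fibroblast markers were detected in every library, and their summed level was 15412 to 26660 CPM (read counts scaled to library size with TMM factors) in VAS+H2O, 11160 to 18162 in IMQ+H2O and 11065 to 18659 in IMQ+XYF. Of 16 cartilage markers, 15 had a row in the table, and Snorc had none under that symbol. The 15 summed to 2226 to 4696 CPM in VAS+H2O, 669 to 1132 in IMQ+H2O and 1327 to 3658 in IMQ+XYF. In each group 1 of them was at 0 counts in a library. Epidermal keratinocyte markers summed to 2222 to 6727 CPM in 8 libraries and to 14885 CPM in IMQ+XYF replicate 1. Skeletal muscle markers summed to 539 to 2561 CPM in 8 libraries and to 117 CPM in that same library. Neutrophil markers summed to at most 22.4 CPM in VAS+H2O, against 213 to 670 CPM in IMQ+H2O and 176 to 481 CPM in IMQ+XYF. In whole tissue, fewer cells of a type and less RNA per cell cannot be told apart.

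Levels between genes were compared per length, as CPM per kilobase of the principal transcript. Eln was the most abundant of the 10 in every group, at 275 ± 68.0 CPM per kb in VAS+H2O, 100.2 ± 10.2 in IMQ+H2O and 174 ± 68.1 in IMQ+XYF (mean ± SD, n = 3). It lay above the next gene in every library of its group. In VAS+H2O the next genes were Mfap4 at 71.5 ± 4.91 and Lox at 62.3 ± 7.34 CPM per kb, whose libraries overlapped, then Fbn1 at 46.3 ± 3.93 and Fbln2 at 39.4 ± 7.43, which overlapped too. Mfap5, Loxl1 and Fbln5 followed at 26.3 ± 8.21, 24.6 ± 3.05 and 21.8 ± 2.96 CPM per kb, each overlapping its neighbour. Efemp2 at 13.7 ± 2.90 and Fbn2 at 4.93 ± 0.357 CPM per kb were the lowest, each apart from the gene above it. In both imiquimod groups Lox stood second, at 74.5 ± 11.2 and 55.7 ± 3.42 CPM per kb, and Fbln2 next, at 39.5 ± 5.64 and 32.3 ± 9.02. From Fbln2 down to Efemp2, each gene overlapped the next in both of these groups. Fbn2 was the lowest of the 10 in every group. The first place depended on the length used, since per kilobase of all annotated exons Lox stood above Eln in IMQ+H2O, at 73.9 ± 11.1 against 47.7 ± 4.84.

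As a share of the summed CPM per kb of the 10 genes, Eln took 54.5%, 38.9% and 46.3% in the VAS+H2O libraries, 27.7%, 28.7% and 25.4% in IMQ+H2O, and 30.5%, 53.1% and 43.2% in IMQ+XYF. The IMQ+H2O libraries lay below all other libraries in this share. Per kilobase of all annotated exons the share of Eln was smaller, at 26.1% to 39.4% in VAS+H2O and 16.1% to 18.0% in IMQ+H2O. In IMQ+XYF it was 19.5% to 38.1% by that length, and the IMQ+H2O libraries again lay lowest. Per kilobase of the principal transcript, Lox took 10.2%, 12.2% and 9.58% in VAS+H2O, 20.8%, 22.4% and 17.6% in IMQ+H2O, and 17.7%, 13.2% and 12.0% in IMQ+XYF. Its share was higher in each IMQ+H2O library than in each VAS+H2O library, and IMQ+XYF replicate 1 lay at the lower end of IMQ+H2O. The summed level itself was 586 ± 47.9 CPM per kb in VAS+H2O, 368 ± 29.5 in IMQ+H2O and 402 ± 91.4 in IMQ+XYF. These shares were computed after the values had been seen and were not tested.

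**Figure D1:**
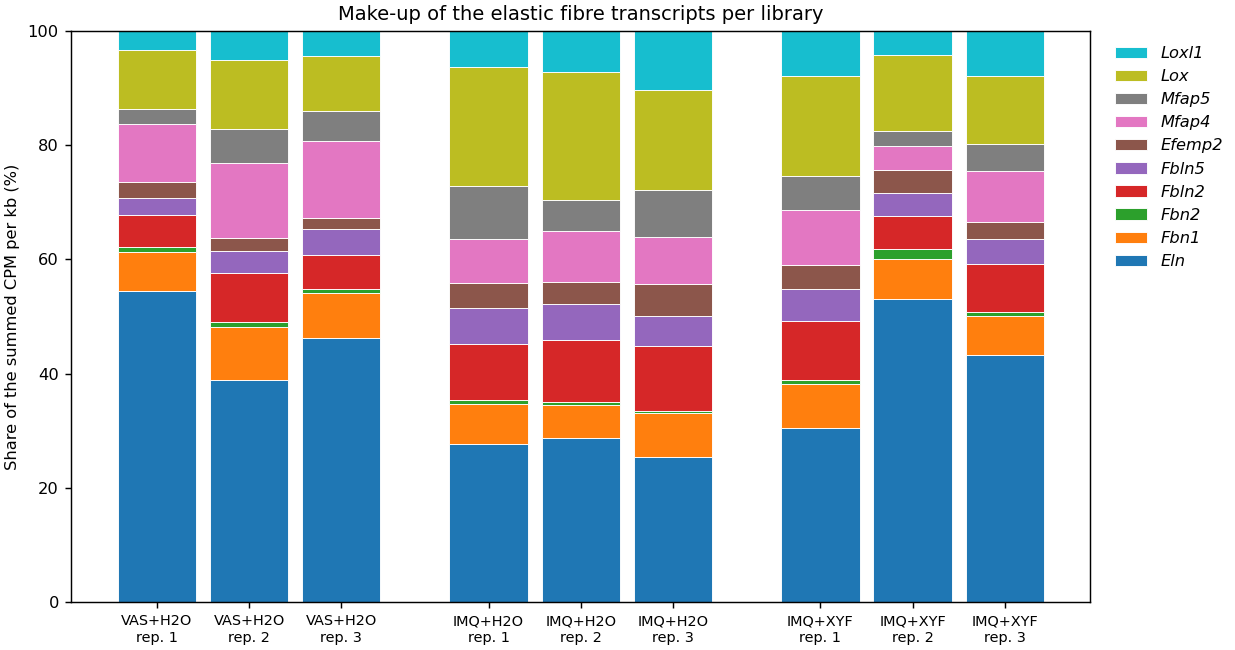
Stacked bars give, for each of the 9 libraries, the percentage of the summed CPM per kb of principal transcript contributed by each of the 10 genes. The Eln segment is 25.4% to 28.7% in IMQ+H2O and 38.9% to 54.5% in VAS+H2O.

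The effect of imiquimod was read from IMQ+H2O against VAS+H2O. Elastin and both fibrillins were lower in IMQ+H2O, as was Mfap4, while the fibulins, Mfap5 and the lysyl oxidases had overlapping libraries in the 2 groups. The lower genes stood at 2.75-fold (Eln), 2.62-fold (Fbn2), 2.33-fold (Mfap4) and 1.85-fold (Fbn1) less than in VAS+H2O. A call required an adjusted p of at most 0.05 together with a log2 fold change of at least 1 in size, from the quasi-likelihood test of edgeR, adjusted over all tested genes after Benjamini and Hochberg. By this rule 0 of the 10 genes were called, against 0.994% of all tested genes. Fbn1 alone passed the adjusted p without the size limit, as did 1.37% of all tested genes. At an unadjusted p under 0.05 there were 4 genes, all lower, against 20.9% of all tested genes in either direction and 10.8% lower. The same 4 genes had groups that did not overlap, against 31.5% of all tested genes in either direction and 16.5% lower. DESeq2 called 3 of the 10 genes, Eln, Fbn2 and Mfap4, against 3.88% of its genes in either direction and 1.7% lower. The count by edgeR was 2 without IMQ+XYF replicate 1 (Eln and Fbn2, against 1.37% of all tested genes), 3 without IMQ+XYF replicate 2 (Eln, Fbn2 and Mfap4, against 1.99%) and 3 in a fit of the 6 libraries compared (the same genes, against 2.38%). The median log2 fold change of the 10 genes was 0.0039, beside −0.023 over all tested genes.

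Eln (chromosome 5, 134702593 to 134747323, minus strand, GRCm38) encodes tropoelastin. Its level was 1346, 831 and 1005 CPM in the VAS+H2O libraries and 356, 430 and 372 CPM in the IMQ+H2O libraries. Every IMQ+H2O library lay below every VAS+H2O library, and replicate 1 stood highest in VAS+H2O. The log2 fold change was −1.46 (SE 0.31, 95% interval −2.15 to −0.76, edgeR adjusted p = 0.0594). Leaving out 1 library at a time gave −1.61 to −1.25, with adjusted p from 0.0225 to 0.213.

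The fibrillins Fbn1 (chromosome 2, 125300594 to 125507993, minus strand) and Fbn2 (chromosome 18, 58008623 to 58210487, minus strand) encode the backbone of the microfibril. Fbn1 is the main form in adult tissue, and Fbn2 is known best from development. Fbn1 stood at 527, 608 and 526 CPM in VAS+H2O and at 280, 270 and 346 CPM in IMQ+H2O. The libraries did not overlap, and the spread within each group was small beside the gap. Its log2 fold change was −0.89 (SE 0.16, 95% interval −1.24 to −0.54, edgeR adjusted p = 0.0382), just under the size limit. The adjusted p of Fbn1 was above 0.05 without any 1 of the 6 libraries compared, at 0.0729, 0.112 and 0.107 without VAS+H2O replicates 1, 2 and 3 and at 0.110, 0.125 and 0.0981 without IMQ+H2O replicates 1, 2 and 3. Gm9913, on the other strand, overlaps Fbn1 over 2793 bases of gene span, introns included, with some overlap of exons. Its own count was at most 0.760% of that of Fbn1. Fbn2 stood at 55.3, 57.9 and 50.2 CPM in VAS+H2O and at 22.9, 21.9 and 17.6 CPM in IMQ+H2O. These libraries did not overlap either. Its log2 fold change was −1.39 (SE 0.32, 95% interval −2.12 to −0.66, edgeR adjusted p = 0.0715).

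Of the microfibril-associated glycoproteins, Mfap4 (chromosome 11, 61485431 to 61488900, plus strand) binds elastin and fibrillin and serves in elastic fibre assembly. It stood at 114, 126 and 130 CPM in VAS+H2O and at 44.7, 60.0 and 53.5 CPM in IMQ+H2O. The libraries did not overlap, and the highest IMQ+H2O library was well below the lowest VAS+H2O library. The log2 fold change was −1.22 (SE 0.30, 95% interval −1.90 to −0.55, edgeR adjusted p = 0.0796). Mapk7 lies on the other strand and overlaps Mfap4 over 89 bases of gene span, with some overlap of exons. Its own count was 17.1% to 80.2% of that of Mfap4, so reads of shared exon bases are uncertain if counting ignored the strand. Mfap5 (chromosome 6, 122505845 to 122529290, plus strand), which encodes a microfibril protein that binds fibrillins, stood at 25.5 to 48.6 CPM in VAS+H2O and at 32.1 to 46.8 CPM in IMQ+H2O. Its log2 fold change was 0.078 (SE 0.32, 95% interval −0.64 to 0.80), and its groups overlapped.

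The fibulins bridge elastin and the microfibrils. Fbln5 (chromosome 12, 101746565 to 101819055, minus strand) and Efemp2 (chromosome 19, 5473954 to 5482517, plus strand), which encodes fibulin-4, bind tropoelastin and lysyl oxidases and are needed for elastic fibre assembly. Fbln2 (chromosome 6, 91212455 to 91272540, plus strand) encodes a larger fibulin of basement membranes and microfibrils. Fbln5 ranged from 111 to 145 CPM in VAS+H2O and from 117 to 144 CPM in IMQ+H2O, and Fbln2 from 161 to 229 CPM and from 158 to 207 CPM. The groups overlapped for both, with log2 fold changes of 0.0024 (95% interval −0.34 to 0.35) for Fbln5 and 0.0053 (95% interval −0.50 to 0.51) for Fbln2. Efemp2 ranged from 30.6 to 44.8 CPM in VAS+H2O and from 38.6 to 56.0 CPM in IMQ+H2O, with a log2 fold change of 0.31 (95% interval −0.12 to 0.75). Mus81, on the other strand, overlaps Efemp2 over 173 bases of gene span, with some overlap of exons. The count of Mus81 was 18.4% to 35.4% of that of Efemp2.

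The lysyl oxidases oxidise lysine side chains of elastin and collagen, the step from which crosslinks form. Lox (chromosome 18, 52516067 to 52529867, minus strand) stood at 310, 321 and 256 CPM in VAS+H2O and at 329, 414 and 317 CPM in IMQ+H2O. The groups overlapped, with IMQ+H2O replicate 3 below VAS+H2O replicate 2. The log2 fold change was 0.26 (SE 0.14, 95% interval −0.052 to 0.57, edgeR adjusted p = 0.313). Loxl1 (chromosome 9, 58287738 to 58313186, minus strand), whose product acts on elastin in particular, ranged from 71.0 to 91.1 CPM in VAS+H2O and from 70.0 to 128 CPM in IMQ+H2O. Its log2 fold change was 0.25 (95% interval −0.44 to 0.94). The intervals of Lox and Loxl1 do not reach a difference of the size fitted for Eln.

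**Figure D2:**
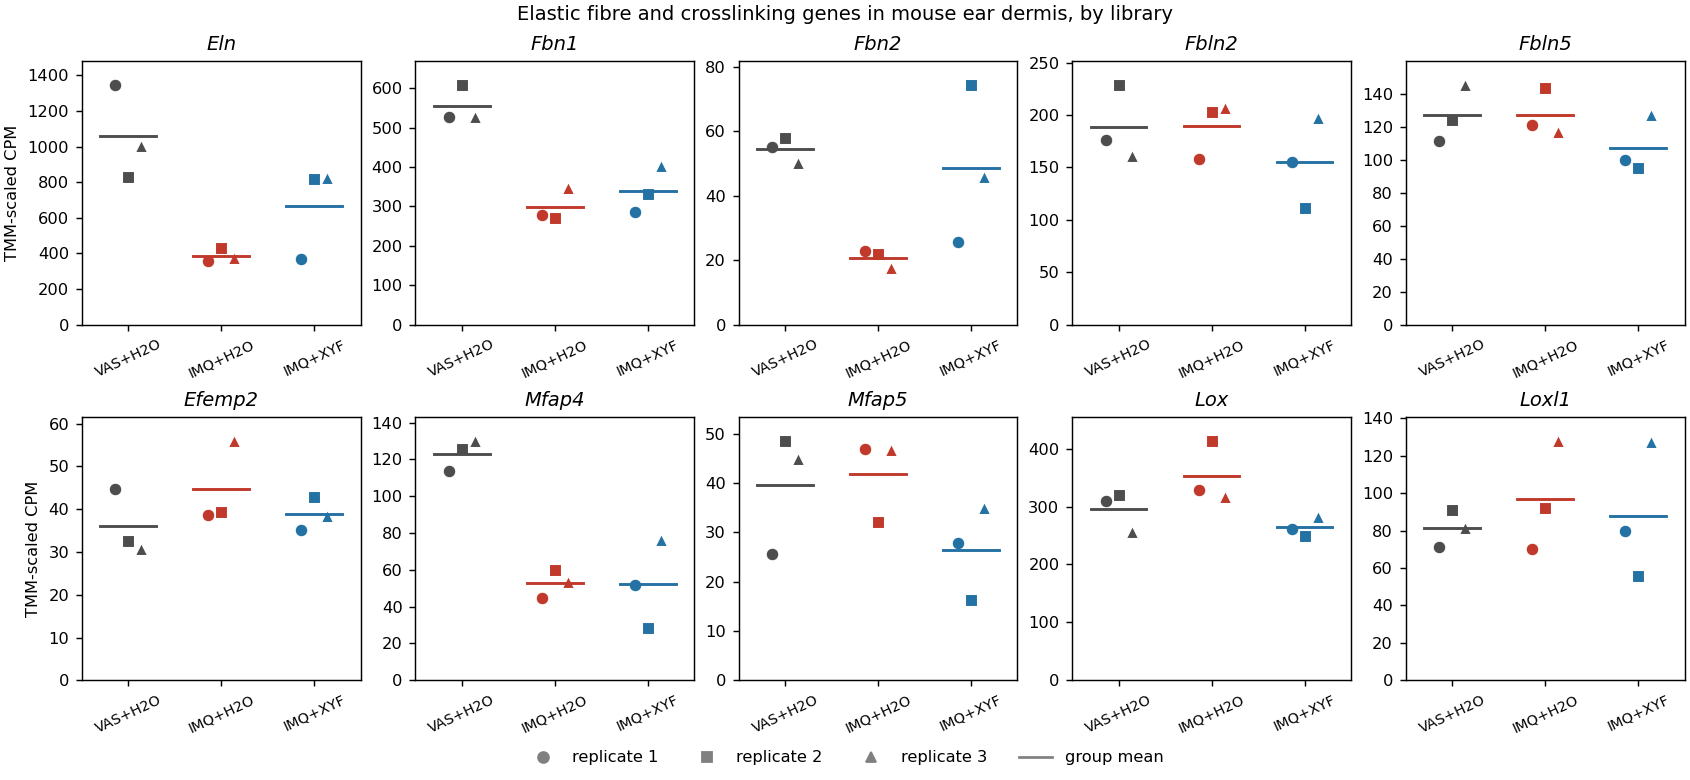
Each panel plots 1 gene, with TMM-scaled CPM on the y axis from 0, a point per library (shape by replicate) and a horizontal line at the group mean, by group. In Eln, Fbn1, Fbn2 and Mfap4 all IMQ+H2O libraries lie below all VAS+H2O libraries, and in IMQ+XYF replicate 1 Eln is at 366 CPM, next to the IMQ+H2O libraries.

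Cartilage markers moved with the same comparison. Of 14 tested cartilage markers, 14 were lower in IMQ+H2O at an unadjusted p under 0.05 and 3 were called, with a median log2 fold change of −1.83. VAS+H2O replicate 1 was highest both in cartilage markers (4696 CPM) and in Eln, and IMQ+XYF replicate 1 was lowest of its group in cartilage markers (1327 CPM), Eln and Fbn2. IMQ+XYF replicate 2, with 3658 CPM of cartilage markers, had the highest Fbn2 of all libraries and the lowest Mfap4. Within IMQ+H2O the order differed, since replicate 2 had the lowest cartilage markers (669 CPM) and the highest Eln. For Fbn2 the order differed within VAS+H2O, where replicate 2 had the lowest cartilage markers (2226 CPM) and the highest Fbn2 (57.9 CPM). With the mean level of the cartilage markers as a covariate in edgeR, the log2 fold change of Eln was −0.39 (adjusted p = 0.764) and that of Fbn2 −0.36 (adjusted p = 0.782), while those of Fbn1 and Mfap4 were −0.75 (adjusted p = 0.290) and −2.07 (adjusted p = 0.141). The cartilage marker levels of VAS+H2O and IMQ+H2O did not overlap, so this covariate and the group can hardly be told apart in that fit. At an unadjusted p under 0.05, some other markers differed too, beside 10.1% of all tested genes higher and 10.8% lower. Endothelial markers (3 of 8), smooth muscle and pericyte markers (4 of 10) and monocyte-macrophage markers (3 of 8) were higher in IMQ+H2O and keratinocyte markers (2 of 10) lower, with 0 called in these lists, and their part in the results was not tested. Of 10 fibroblast markers, 3 were lower in IMQ+H2O at an unadjusted p under 0.05 and 0 were called. With the fibroblast markers as the covariate, Eln was at −1.51 (adjusted p = 0.0474), Fbn2 at −1.57 (adjusted p = 0.0467), Fbn1 at −0.79 (adjusted p = 0.0350) and Mfap4 at −0.91 (adjusted p = 0.0618). In that fit Eln and Fbn2 were called, 2 of the 10 genes against 3.2% of all tested genes.

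**Figure D3:**
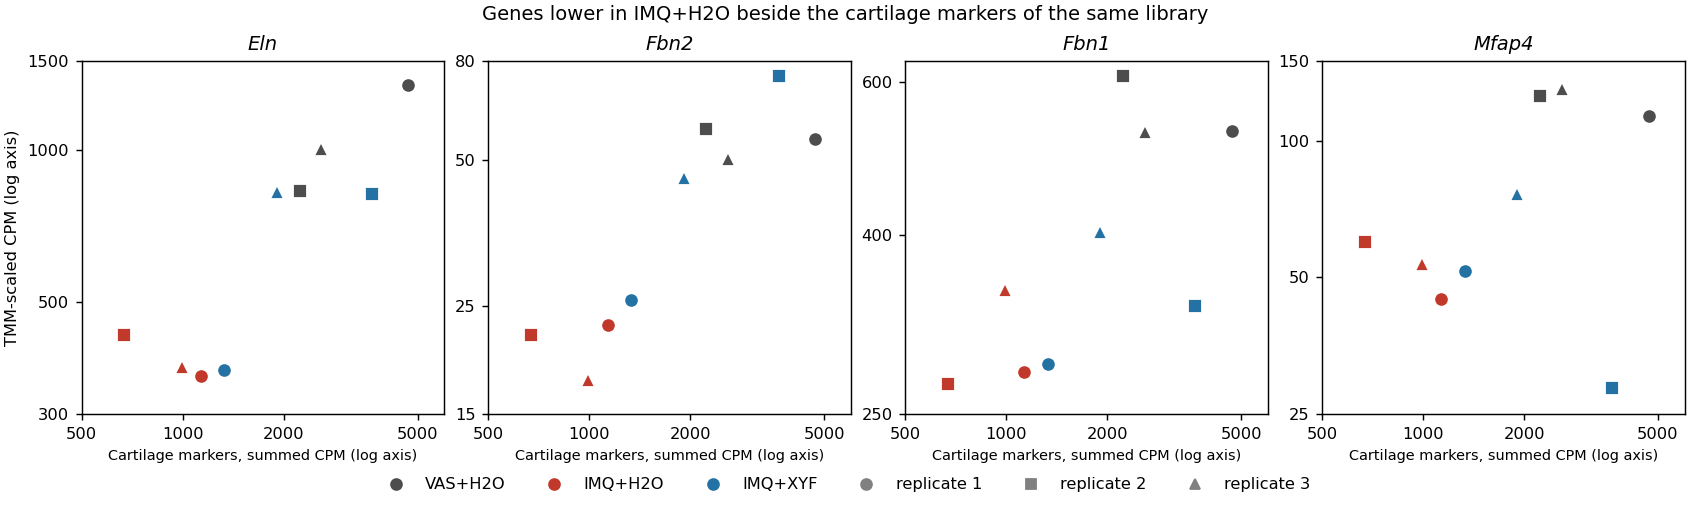
Each panel plots, for 1 gene and the 9 libraries, TMM-scaled CPM against the summed CPM of the cartilage markers, both on log axes (colour by group, shape by replicate). IMQ+H2O libraries sit at 669 to 1132 CPM of cartilage markers and VAS+H2O libraries at 2226 to 4696 CPM, and IMQ+XYF replicate 2, at 3658 CPM, is highest for Fbn2 and lowest for Mfap4.

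The effect of the herbal treatment, which was begun before imiquimod, was read from IMQ+XYF against IMQ+H2O. Fbn2 was 2.34-fold higher and Eln 1.73-fold higher in IMQ+XYF, and Lox was 1.34-fold lower. Fbn1 and Mfap4, which were lower in IMQ+H2O than in the control, stood near their IMQ+H2O levels. By edgeR 0 of the 10 genes were called, against 0.00892% of all tested genes, which is 2 genes, Sike1 (lower) and Prr33 (higher), named here after their values were seen. At an unadjusted p under 0.05 there were 3 genes, Eln, Fbn2 and Lox, against 11.7% of all tested genes (6.35% higher and 5.39% lower). Of these, Fbn2 and Lox had groups that did not overlap, 2 of the 10 genes against 18% of all tested genes (9.22% higher and 8.74% lower). DESeq2 called 1 gene, Fbn2 (adjusted p = 0.0212), against 1.14% of its genes in either direction and 0.76% higher. The count at an unadjusted p under 0.05 was 1 (Fbn2, against 14.1% of all tested genes) without IMQ+XYF replicate 2 and 5 (Fbn2, Fbln2, Fbln5, Mfap5 and Lox, against 11.8%) without IMQ+XYF replicate 3. With the cartilage markers as a covariate it was 1 (Efemp2, against 16.3%). Markers of skeletal muscle (8 of 10) and endothelium (5 of 8) were lower and those of keratinocytes (6 of 10) higher in the same comparison at an unadjusted p under 0.05, with 0 called, and their part in the results was not tested. The median log2 fold change of the 10 genes was −0.17, beside 0.0054 over all tested genes.

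In IMQ+XYF, Eln stood at 366, 818 and 824 CPM. Replicate 1 lay within the range of IMQ+H2O, and the other replicates lay far above it, just under the lowest VAS+H2O library. Its log2 fold change was 0.79 (SE 0.30, 95% interval 0.11 to 1.48, edgeR adjusted p = 0.387). Leaving out 1 library at a time gave 0.62 to 1.09, the highest without IMQ+XYF replicate 1, and with the cartilage markers as a covariate it was −0.023 (adjusted p = 0.987). The cartilage marker levels of IMQ+XYF (1327 to 3658 CPM) and IMQ+H2O (669 to 1132 CPM) did not overlap either. This covariate and the group are therefore hard to tell apart in this comparison too.

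Fbn2 stood at 25.8, 74.4 and 45.9 CPM in IMQ+XYF. All 3 libraries lay above the IMQ+H2O libraries, replicate 1 only slightly so, and replicate 2 above every VAS+H2O library. For Fbn2 the log2 fold change was 1.23 (SE 0.32, 95% interval 0.50 to 1.95, edgeR adjusted p = 0.364), and it was 0.81 without IMQ+XYF replicate 2 and 0.37 (adjusted p = 0.728) with the cartilage markers as a covariate. The limit of that covariate given for Eln holds here too. Of the 14 tested cartilage markers, 12 were higher in IMQ+XYF at an unadjusted p under 0.05 and 0 were called, with a median log2 fold change of 1.47. Fbn1 stood at 285, 332 and 403 CPM, overlapping IMQ+H2O, with a log2 fold change of 0.19 (95% interval −0.16 to 0.54).

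Mfap4 stood at 51.6, 28.5 and 76.3 CPM, so that its IMQ+XYF libraries lay on both sides of IMQ+H2O. The log2 fold change of Mfap4 was −0.017 (SE 0.29, 95% interval −0.69 to 0.65), and the sign turned without IMQ+XYF replicate 2, to 0.30. Mfap5 stood at 27.8, 16.2 and 34.9 CPM, with a log2 fold change of −0.67 (SE 0.32, 95% interval −1.39 to 0.058, edgeR adjusted p = 0.450). Only the highest of these libraries reached into IMQ+H2O. Replicate 2, the lowest for both genes, had the lowest summed level of fibroblast markers of all 9 libraries (11065 CPM) and the lowest of smooth muscle and pericyte markers (465 CPM). The part of the smooth muscle and pericyte markers in these values was not tested. With the fibroblast markers as a covariate, Mfap5 was at −0.60 (adjusted p = 0.379).

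The fibulins overlapped between IMQ+XYF and IMQ+H2O. In IMQ+XYF, Fbln2 ranged from 111 to 198 CPM, Fbln5 from 95.1 to 127 CPM and Efemp2 from 35.1 to 43.0 CPM. Their log2 fold changes were −0.29 (95% interval −0.79 to 0.21), −0.24 (95% interval −0.59 to 0.098) and −0.20 (95% interval −0.64 to 0.23).

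Lox stood at 262, 249 and 281 CPM in IMQ+XYF. Every one of these libraries was below every IMQ+H2O library, and the group had the smallest spread that Lox showed in any group. Its fitted log2 fold change was −0.42 (SE 0.14, 95% interval −0.73 to −0.11, edgeR adjusted p = 0.364). An antisense gene on the other strand, AC161119.1, overlaps Lox over 1207 bases of gene span, with some overlap of exons. It had no row in the table used here, so its part in the Lox counts is unknown if counting ignored the strand. Smooth muscle and pericyte markers, from which lysyl oxidase can also come, summed to 1187 to 1351 CPM in IMQ+H2O and to 465 to 1011 CPM in IMQ+XYF, and 6 of 10 were lower at an unadjusted p under 0.05 with 0 called. Their part in the Lox result was not tested. Loxl1 ranged from 55.8 to 127 CPM in IMQ+XYF and overlapped IMQ+H2O, with a log2 fold change of −0.14 (95% interval −0.83 to 0.55).

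The comparison of IMQ+XYF with VAS+H2O asked how far the treated dermis stood from the control. Mfap4 was 2.36-fold and Fbn1 1.63-fold lower in IMQ+XYF, and Eln was 1.58-fold lower. Fbn2 had a log2 fold change of −0.16 that rested on single libraries, since it was −0.56 without IMQ+XYF replicate 2 and 0.14 without IMQ+XYF replicate 1. By edgeR 0 of the 10 genes were called, against 1.2% of all tested genes. At an unadjusted p under 0.05 there were 2 genes, Fbn1 and Mfap4, both lower, against 18.3% of all tested genes in either direction and 8.76% lower. The groups did not overlap for 3 genes, Eln, Fbn1 and Mfap4, all lower, against 22.1% of all tested genes in either direction and 10.3% lower. DESeq2 called 1 gene, Mfap4 (adjusted p = 0.00360), against 3.46% of its genes in either direction and 1.54% lower. Without IMQ+XYF replicate 3, 5 genes had an unadjusted p under 0.05 (Eln, Fbn1, Fbln5, Mfap4 and Mfap5), against 14.9% of all tested genes. Without IMQ+XYF replicate 2 there were 3 (Fbn1, Fbn2 and Mfap4), against 22.8%. The median log2 fold change of the 10 genes was −0.26, beside −0.024 over all tested genes. Some cell type markers passed an unadjusted p under 0.05 here too, beside 9.58% of all tested genes higher and 8.76% lower. The counts for adipocytes and cartilage lay close to those shares. Lower were those of fibroblasts (2 of 10), cartilage (2 of 14), smooth muscle and pericytes (2 of 10) and skeletal muscle (5 of 10). Keratinocyte (2 of 10), monocyte-macrophage (2 of 8) and adipocyte markers (1 of 8) were higher, with 1 keratinocyte and 1 monocyte-macrophage marker lower. In these lists 0 were called, and their part in the results was not tested.

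By edgeR the log2 fold change of Mfap4 against the control was −1.24 (SE 0.30, 95% interval −1.92 to −0.56, adjusted p = 0.0720). That of Fbn1 was −0.70 (SE 0.16, 95% interval −1.06 to −0.35, adjusted p = 0.0585). For Eln it was −0.66 (SE 0.30, 95% interval −1.35 to 0.022, adjusted p = 0.286). The highest Eln library of IMQ+XYF was just under the lowest of VAS+H2O, so its groups were apart by a narrow gap. Fbn2 was at −0.16 (95% interval −0.87 to 0.55) with IMQ+XYF libraries on both sides of the control. The 6 other genes ranged from −0.59 for Mfap5 to 0.11 for Loxl1, and all of them overlapped the control.

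**Figure D4:**
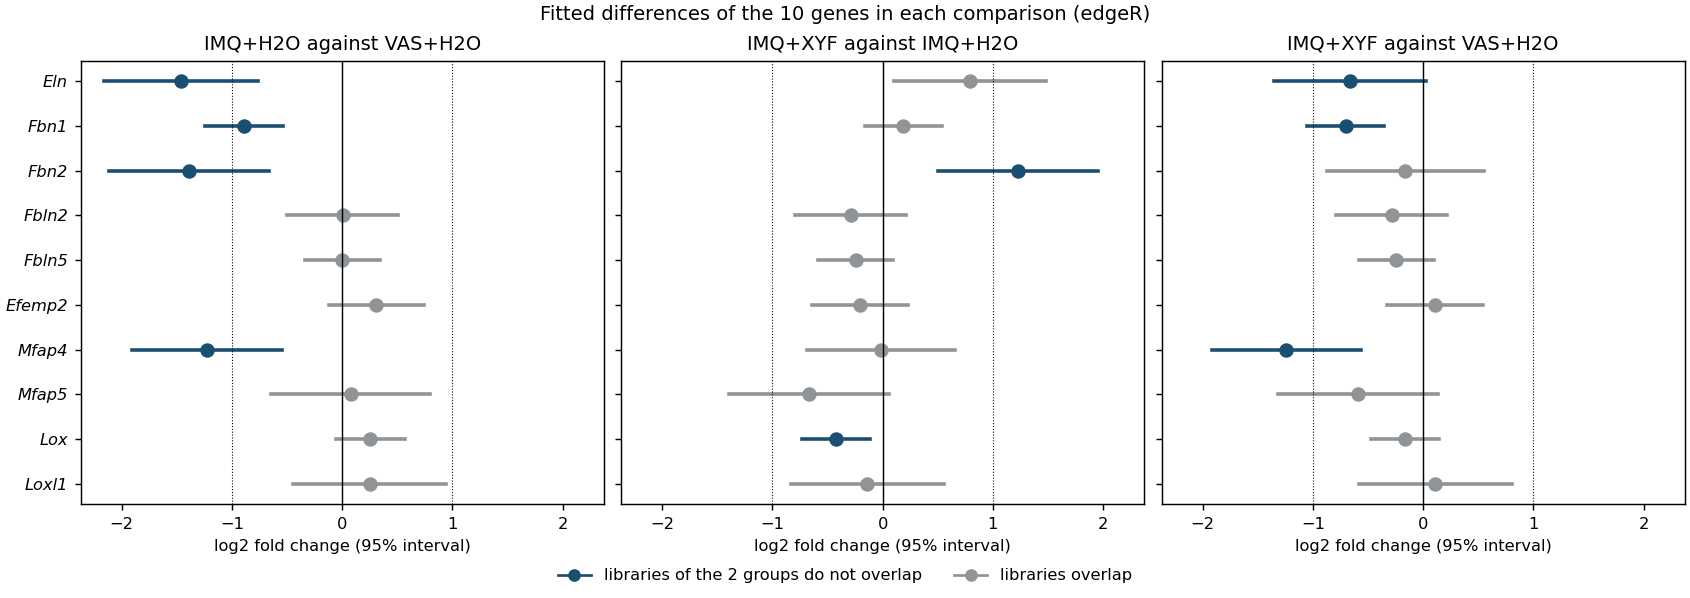
Points give the fitted log2 fold change of each of the 10 genes in the 3 comparisons and bars its 95% interval from edgeR, dark where the libraries of the compared groups do not overlap, with dotted lines at the size limit of 1 in either direction. Eln, Fbn1, Fbn2 and Mfap4 are dark and below 0 in IMQ+H2O against VAS+H2O, and Fbn2 (1.23) and Lox (−0.42) are dark in IMQ+XYF against IMQ+H2O.

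The comparisons share libraries, since IMQ+H2O enters the first and the second and VAS+H2O the first and the third. The values of a gene in them are therefore not independent. Side by side, Eln was at −1.46, 0.79 and −0.66, Fbn2 at −1.39, 1.23 and −0.16, Fbn1 at −0.89, 0.19 and −0.70, and Mfap4 at −1.22, −0.017 and −1.24 on the log2 scale, in the order given above. Lox was at 0.26, −0.42 and −0.16.

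Within a library, the ratio of 2 genes does not depend on how libraries are scaled. The ratios given here were chosen after the values had been seen. The level of Eln per kb was 5.34, 3.19 and 4.83 times that of Lox in VAS+H2O, 1.33, 1.28 and 1.44 times in IMQ+H2O, and 1.72, 4.04 and 3.60 times in IMQ+XYF. The elastin to lysyl oxidase ratio was thus lowest in all IMQ+H2O libraries, with IMQ+XYF replicate 1 just above them. These ratios are per kb of principal transcript. Per kilobase of all annotated exons Lox stood above Eln in IMQ+H2O, so their size depends on the length used. The log2 differences of the elastin to lysyl oxidase ratio between groups do not. Its log2 difference was −1.69 for IMQ+H2O against VAS+H2O and 1.12 for IMQ+XYF against IMQ+H2O, each with an exact permutation p of 0.1 (two-sided), the smallest that 3 against 3 libraries allow. That p follows whenever the compared groups do not overlap, so for ratios chosen after the values had been seen it adds no support. Per kb of principal transcript, the ratio of Fbn2 to Fbn1 was 0.114, 0.103 and 0.103 in VAS+H2O, 0.0887, 0.0877 and 0.0552 in IMQ+H2O, and 0.0982, 0.243 and 0.123 in IMQ+XYF. IMQ+H2O was the lowest group here too, and the highest ratio was that of IMQ+XYF replicate 2. Its log2 difference was −0.50 for IMQ+H2O against VAS+H2O and 0.93 for IMQ+XYF against IMQ+H2O, both with an exact permutation p of 0.1. The Eln to Fbn1 ratio overlapped between IMQ+H2O and the other groups, with log2 differences of −0.54 and 0.52 and an exact permutation p of 0.2 for each.

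The pattern of each gene over the 9 libraries was compared with that of others by the root mean square difference of centred log2 CPM, where 0 is the same pattern. Among the 10 genes, Fbln5 and Lox were the most alike (0.209), followed by Fbln2 with Loxl1 (0.231) and with Lox (0.232). Eln was closest to Fbn2 (0.335) and then to Fbn1 (0.421). The least alike pair was Fbn2 and Mfap5 (1.03). Over all tested genes, the 5 closest to Eln were Angptl1 (0.177), Rab36 (0.204), Gm25026 (0.232), Cercam (0.236) and Frmd7 (0.245). Angptl1, which encodes a secreted protein related to the angiopoietins, stood at 36.3, 11.8 and 20.1 CPM on average in VAS+H2O, IMQ+H2O and IMQ+XYF, and Cercam at 43.8, 20.9 and 28.6 CPM. The gene closest to Fbn2 was Sox9 (0.152), a transcription factor of chondrocytes and of hair follicles and itself among the cartilage markers, which is named after its values were seen. These likenesses describe 9 libraries that share groups and tissue make-up, and were not tested.

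Other genes of elastic fibre assembly and turnover were taken from 9 lists with 78 genes, of which 76 were tested. In IMQ+H2O against VAS+H2O 2 of them were called higher by edgeR and 0 lower, beside 0.646% of all tested genes called higher and 0.348% called lower. At an unadjusted p under 0.05, 6 were higher and 24 lower, beside 10.1% and 10.8% of all tested genes. The called genes were Timp1 and Slpi, from the list of elastase inhibitors. Timp1, an inhibitor of matrix metalloproteinases, rose from 14.5, 18.9 and 16.3 CPM to 94.5, 221 and 217 CPM (log2 fold change 3.42, SE 0.54, adjusted p = 0.0279). Slpi, a secreted inhibitor of neutrophil elastase, rose from 4.15, 6.42 and 3.52 CPM to 18.5, 19.2 and 29.2 CPM (log2 fold change 2.26, SE 0.32, adjusted p = 0.0247). Their groups did not overlap. Neutrophil markers were higher in the same libraries, 7 of 7 tested ones at an unadjusted p under 0.05 and 5 called, and their part in these results was not tested. Both calls were lost without VAS+H2O replicate 1, 2 or 3 or IMQ+H2O replicate 2 or 3, with adjusted p for Timp1 of 0.0818, 0.0935, 0.107, 0.0885 and 0.101 and for Slpi of 0.0627, 0.0513, 0.0886, 0.0673 and 0.0873, in that order.

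In the 4 lists of structural and crosslinking genes 0 genes were called in IMQ+H2O against VAS+H2O, beside 0.994% of all tested genes. The counts of higher and lower genes in these lists are those at an unadjusted p under 0.05. At that limit 10.1% of all tested genes were higher and 10.8% lower. Of 10 other microfibril-bound proteins, 4 were lower and 0 higher at an unadjusted p under 0.05, with a list median of −0.53 on the log2 scale. Ltbp2, a fibrillin-binding protein of the latent TGF-beta binding family, stood at 49.0 ± 5.53 CPM in VAS+H2O and 24.8 ± 3.86 CPM in IMQ+H2O (log2 fold change −0.98, adjusted p = 0.0247), just under the size limit. Its adjusted p was above 0.05 without VAS+H2O replicate 2 or 3 or any 1 IMQ+H2O library, at up to 0.101. Of 5 other fibulins 2 were lower, with a median of −0.57. Among them, Hmcn2, a large fibulin-related protein, stood at 29.8 ± 3.66 against 10.7 ± 4.22 CPM (log2 fold change −1.48, adjusted p = 0.0567). Of 7 other lysyl oxidases and collagen crosslinking enzymes 4 were lower and 2 higher, with a median of −0.95. Loxl4, a lysyl oxidase of the same family as Lox, stood at 980, 520 and 439 CPM in VAS+H2O and at 260, 195 and 252 CPM in IMQ+H2O (log2 fold change −1.46, adjusted p = 0.0621). Of 8 ADAMTS-like microfibril organisers 3 were lower, with a median of −0.47, Thsd4 at 34.6 ± 5.31 against 18.5 ± 3.46 CPM (log2 fold change −0.91, adjusted p = 0.0920).

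The counts for the other lists are also those at an unadjusted p under 0.05, beside 10.1% of all tested genes higher and 10.8% lower. Of 10 genes of lysyl oxidase activation and copper supply 3 were lower (median −0.19), with fibronectin, Fn1, at 885 ± 91.3 against 506 ± 108 CPM (log2 fold change −0.80, adjusted p = 0.0717). Of 9 tested elastin-degrading proteases 1 was higher and 1 lower (median 0.24), the lower one being the neprilysin gene Mme at 57.4 ± 2.77 against 34.2 ± 3.48 CPM (log2 fold change −0.75, adjusted p = 0.0554). The higher one was Mmp9, the gene of gelatinase B, at 2.27 ± 1.67 against 7.70 ± 3.69 CPM with groups that did not overlap (log2 fold change 1.78, adjusted p = 0.135), named after its values were seen. The genes of neutrophil elastase, Elane, and of matrilysin, Mmp7, had too few counts to be tested. Of the other 5 elastase inhibitors 3 were lower, so that the list as a whole had a median of −0.35 although its called genes rose. Of 8 elastin receptors 1 was lower at that limit, near the share of all tested genes (median −0.084). It was the integrin gene Itgb5 at 165 ± 28.2 against 97.9 ± 3.72 CPM (log2 fold change −0.75, adjusted p = 0.0629). Of 12 genes of TGF-beta signalling 1 was higher and 3 lower (median −0.26), among them Thbs1, an activator of latent TGF-beta, at 1437 ± 281 against 737 ± 162 CPM (log2 fold change −0.96, adjusted p = 0.0831).

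In IMQ+XYF against IMQ+H2O 0 of the 76 genes were called, and at an unadjusted p under 0.05 8 were higher and 2 lower, beside 6.35% and 5.39% of all tested genes. Slpi stood at 48.0, 30.6 and 59.5 CPM in IMQ+XYF, above every IMQ+H2O library (log2 fold change 1.04, adjusted p = 0.364). Epidermal keratinocyte markers summed to 2222 to 3366 CPM in IMQ+H2O and to 3890 to 14885 CPM in IMQ+XYF. Their part in the Slpi values was not tested. Timp1 stood at 140, 91.8 and 358 CPM and overlapped IMQ+H2O (log2 fold change 0.15). The higher genes further included Smad3, a mediator of TGF-beta signalling, at 71.6 ± 17.1 against 49.5 ± 3.55 CPM (log2 fold change 0.53, adjusted p = 0.364), and Loxl4 at 419 ± 109 against 236 ± 35.2 CPM (log2 fold change 0.83, adjusted p = 0.384). Adamtsl3 stood at 68.7, 191 and 86.4 CPM (log2 fold change 1.03), Fbln7 at 21.5, 76.8 and 31.8 CPM (log2 fold change 1.29) and Emilin1, an elastin-interface protein, at 38.1, 89.5 and 60.8 CPM (log2 fold change 0.77). For these 3 genes replicate 2 was the highest, as it was for Smad3 and Loxl4. That library had the most cartilage marker RNA of the group and the least of fibroblast, endothelial, and smooth muscle and pericyte markers. The part of these markers in the values was not tested. The lists with no gene at an unadjusted p under 0.05 were lysyl oxidase activation, elastin-degrading proteases and elastin receptors, whose lowest p were those of Tll1 (log2 fold change −0.52, adjusted p = 0.436), Ctss, the gene of cathepsin S (−0.56, adjusted p = 0.450), and Neu1 (−0.30, adjusted p = 0.488).

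**Figure D5:**
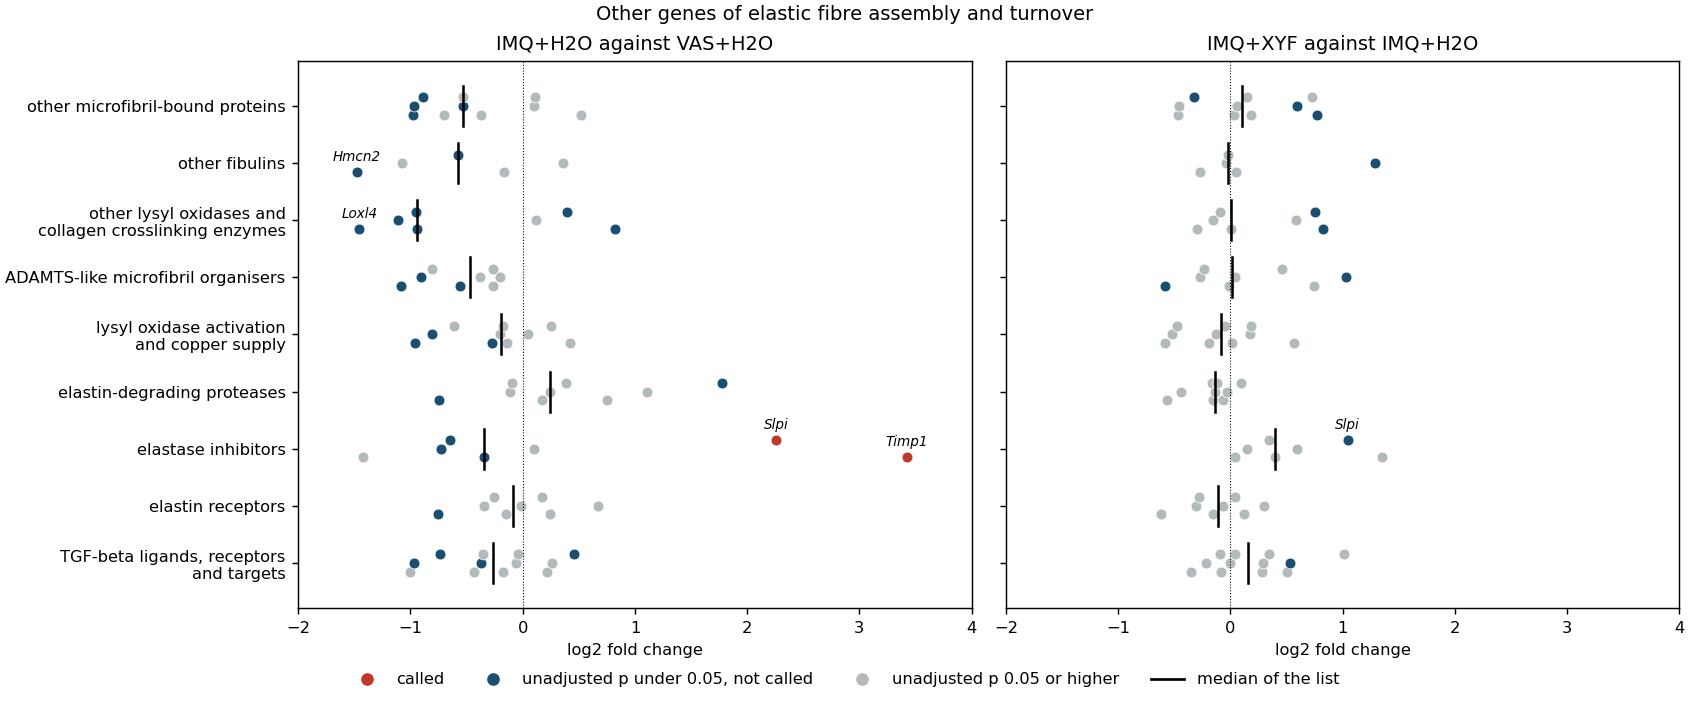
Points give the log2 fold change of each tested gene in 9 lists of elastic fibre assembly and turnover, on the same x axis for IMQ+H2O against VAS+H2O (left) and IMQ+XYF against IMQ+H2O (right), coloured by whether the gene was called or had an unadjusted p under 0.05, with a bar at each list's median. Timp1 (3.42) and Slpi (2.26) stand apart on the left, where 24 of 76 genes are lower at an unadjusted p under 0.05.

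Against VAS+H2O, IMQ+XYF had 2 of the 76 genes called higher, Timp1 (log2 fold change 3.57, SE 0.54, adjusted p = 0.0247) and Slpi (log2 fold change 3.30, SE 0.33, adjusted p = 0.0117), and 1 called lower, Hmcn2 (log2 fold change −1.50, SE 0.30, adjusted p = 0.0475), beside 0.695% of all tested genes called higher and 0.508% lower. Neutrophil markers were higher in IMQ+XYF too, 7 of 7 tested ones at an unadjusted p under 0.05 and 4 called, and their part in these results was not tested. Slpi kept its call without any 1 of the 9 libraries, with adjusted p up to 0.0472. The call of Timp1 was lost without VAS+H2O replicate 1, 2 or 3 or IMQ+XYF replicate 1, at an adjusted p of 0.0615 to 0.109. That of Hmcn2 was kept without IMQ+H2O replicate 1 alone and was otherwise lost, at an adjusted p of up to 0.146. At an unadjusted p under 0.05, 4 of the 76 genes were higher and 14 lower, beside 9.58% and 8.76% of all tested genes.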

How the data were processed

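The deposited table gives whole-number read counts per Ensembl gene for 9 libraries, with no normalization by the authors. According to the study's methods and the submitters' processing notes, the authors aligned reads with STAR 2.5 to GRCm38 with the Ensembl annotation. The counting tool, its use of the strand and its handling of multiply aligned reads are not given in the sources used here, and whether a library pooled the 2 mice named in the methods is not clear. The 10 genes, the lists and the tests were chosen with earlier results of these data known.

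Counts were tested with edgeR 4.0.16 in R 4.3.3 (filterByExpr, TMM, 1 quasi-likelihood fit of all 9 libraries, Benjamini-Hochberg over 22430 genes). Calls needed an adjusted p of 0.05 or lower and an absolute log2 fold change of 1 or higher, the study's limits. The script was tested on simulated counts. SE was taken as the size of the log2 fold change over √F. Values are TMM-scaled CPM, and log2 CPM used a prior count of 2. Lengths and coordinates are from GENCODE vM21. A count of 0 would allow up to 3 counts, 0.0376 to 0.104 CPM by library, for counting error only. All 10 genes were named. From each pathway list, called genes and those of lowest p by imiquimod and by XYF were named, and for Eln the 5 genes of nearest pattern. Alternatives were DESeq2 1.42.0 (the study's tool), RLE factors, no low-count filter, 6 libraries, a replicate block, cartilage or fibroblast markers as a covariate, and each library left out.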

Additional observations from a re-analysis of the deposited data

How the results depend on the processing

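Under the alternatives the members called in IMQ+H2O against VAS+H2O numbered 3 by DESeq2 (against 3.88% of its genes) and 3 in the fit of 6 libraries (against 2.38%). They numbered 2 with the fibroblast covariate (against 3.2%), and 0 to 3 without 1 library (against 0.109% to 1.99%). They numbered 1 by DESeq2 in each of the other comparisons (against 1.14% and 3.46% of its genes) and 0 otherwise. The median of the 10 genes moved to −0.37 with the cartilage and 0.19 with the fibroblast covariate in IMQ+H2O against VAS+H2O. In IMQ+XYF against IMQ+H2O it was 0.029 with the cartilage covariate and −0.39 to 0.027 without 1 library. Genes at an unadjusted p under 0.05 in that comparison numbered 1 with the cartilage covariate, against 16.3% of all tested genes. Without 1 library they numbered 1 to 5 (against 8.01% to 14.1%) there, and 2 to 5 (against 14.4% to 22.8%) in IMQ+XYF against VAS+H2O. These last 3 counts, and leave-one-out values of the ratios, were added after seeing the data. RLE factors turned no sign and no call of the 10 genes.

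The sign turned in 33 of 480 values of single genes, all of them with a main value that was not called. In IMQ+H2O against VAS+H2O these were Fbln5 at −0.0077 without a low-count filter, Fbln2 at −0.0065 with the replicate block, and, with the cartilage covariate, Fbln2 at −0.61, Fbln5 at −0.29, Mfap5 at −0.67 and Loxl1 at −0.25. In IMQ+XYF against IMQ+H2O they were Mfap4 at 0.0095 without a filter, Mfap4 at 0.072 and Loxl1 at 0.0068 with the fibroblast covariate, and, with the cartilage covariate, Eln at −0.023, Fbln2 at 0.14, Mfap4 at 0.56 and Loxl1 at 0.21. In IMQ+XYF against VAS+H2O they were Fbn2 at 0.0091 and Loxl1 at −0.039 with the cartilage and Fbln2 at 0.019 with the fibroblast covariate. Without 1 library the signs that turned belonged to Fbln2 (−0.098 to 0.16), Fbln5 (−0.098 to 0.11) and Mfap5 (−0.16 to 0.24) in IMQ+H2O against VAS+H2O, to Efemp2 (−0.30 to 0.013), Mfap4 (−0.39 to 0.30) and Loxl1 (−0.51 to 0.14) in IMQ+XYF against IMQ+H2O, and to Fbn2 (−0.56 to 0.14) and Loxl1 (−0.26 to 0.40) in IMQ+XYF against VAS+H2O. The cause was not tested.

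Deviations of same-numbered libraries correlated with r from −0.18 to 0.12, and those of other pairs with r from −0.16 to 0.28. This gave no sign that the replicate numbers pair the libraries, but it cannot exclude pairing. With the replicate block 0 of the 10 genes were called in any comparison, against 0.383%, 0% and 0.241% of all tested genes in the order of the text. At an unadjusted p under 0.05 there were 4, 2 and 2 genes, against 18.2%, 9.86% and 16.3% in the same order. With 3 libraries a group, the 95% intervals of some members, such as Eln and Fbn2, were wide, and a 2-fold difference could go uncalled. The intervals of the fibulins, Lox and Loxl1 lay within a 2-fold difference in either direction in every comparison.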
